A study of Mus musculus with 24 samples.

Results

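The mitochondrial ribosomal proteins described here were the genes of the deposited count table whose symbols begin with Mrpl or Mrps, with pseudogenes left out. They numbered 77 of 16821 genes, 48 named for the large subunit (Mrpl) and 29 for the small subunit (Mrps). Members entered by name alone, but the family was chosen with earlier results of these data known. All 77 were protein coding, lay on 17 chromosomes, and passed the filter on low counts, so every member was tested. Their levels were measured by 3′ mRNA sequencing of the inguinal fat pad (IWAT, a white adipose depot under the skin) from 24 male mice of strain C57BL6/J, 6 on each of 4 diets. The elemental control diet supplied protein as elemental amino acids with 0.86% methionine, and the elemental MR diet (methionine restriction) supplied the same with 0.17%. The casein control diet held intact casein (0.86% methionine), and the oxidized casein MR diet held casein whose methionine had been lost by oxidation and was added back to 0.17%. Feeding began at 5 weeks of age and lasted 12 weeks in all groups. Tissue was taken at an age of 4 months following a 4 h fast, and each library carries its own mouse number. The casein comparison sets oxidized against intact casein, so the effects of oxidation and of methionine cannot be told apart in it. The series' design text speaks of liver, but its title and sample sources name IWAT, and the 8 adipocyte markers examined summed to between 20482 and 62735 CPM in the 24 libraries (CPM is a gene's count scaled to its library's total).

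The mitochondrial ribosome sits on the matrix side of the inner membrane and translates the few mRNAs of mitochondrial DNA, all of which code for subunits of the respiratory chain and ATP synthase. Its rRNAs are mitochondrially encoded, while its proteins are made from nuclear genes in the cytosol and imported, so assembly needs transcripts of both genomes. Some members descend from bacterial ribosomal proteins and others were acquired in mitochondria. In fat, mitochondrial content is high in brown and beige adipocytes and lower in white ones.

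Factors known to act on promoters of nuclear genes for mitochondrial proteins include NRF1, GABPA (NRF2), YY1, ESRRA and SP1. RefSeq start sites (GRCm38.p6) were found for 68 of the 77 members, and the 300 bases from 250 before to 50 after each start were searched on both strands for 1 short sequence per factor. The GABPA sequence CCGGAAG stood in 25 of 68 members (36.8%), beside 18.6% of the 11060 tested genes with an entry. The YY1 sequence AAGATGGC stood in 12 members (17.6%, beside 4.90% of all), and the NRF1 sequence GCATGCGC in 8, of which 7 were of the large subunit (11.8%, beside 5.53%). The ESRRA sequence TCAAGGTCA was in none of the 68 windows (0.316% of all). The SP1 sequence GGGCGG was in 34 members (50.0%), beside 65.9% of all genes, whose windows had a median GC content of 60.7% against 58.2% in the members. These shares are descriptions of letters in a window, not binding sites.

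The 5 stretches below, from 120 bases before the start to 20 after it, belong to members described further on. Among the members called on casein, Mrpl12 had the largest rise and Mrps15 the smallest adjusted p, while Mrpl52 was among those that changed least. Mrps18a and Mrpl34 were the 2 of 15 called members with a window that carried the GABPA sequence. The 5 therefore do not show how common that sequence is. Capitals mark matches to the GABPA or YY1 sequence on either strand, and every stretch lies on the + strand. Mrps18a (chr17:46110884-46111023) holds a GABPA match and a YY1 match, Mrpl34 (chr8:71464806-71464945) holds 1 GABPA match, and Mrpl52 (chr14:54426789-54426928) holds 2. Mrpl12 (chr11:120484517-120484656) and Mrps15 (chr4:126046808-126046947) hold neither.
Mrps18a: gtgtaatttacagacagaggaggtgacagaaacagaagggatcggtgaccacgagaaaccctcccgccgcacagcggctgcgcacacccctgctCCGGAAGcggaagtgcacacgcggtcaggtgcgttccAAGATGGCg
Mrpl34: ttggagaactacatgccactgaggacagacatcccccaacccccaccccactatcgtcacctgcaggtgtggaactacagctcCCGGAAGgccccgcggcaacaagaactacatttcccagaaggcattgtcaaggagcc
Mrpl52: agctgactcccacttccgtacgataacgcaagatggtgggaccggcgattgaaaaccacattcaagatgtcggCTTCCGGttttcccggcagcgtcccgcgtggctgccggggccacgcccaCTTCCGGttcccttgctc
Mrpl12: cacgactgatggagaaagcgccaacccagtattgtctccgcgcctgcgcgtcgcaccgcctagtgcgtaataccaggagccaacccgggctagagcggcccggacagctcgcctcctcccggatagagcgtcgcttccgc
Mrps15: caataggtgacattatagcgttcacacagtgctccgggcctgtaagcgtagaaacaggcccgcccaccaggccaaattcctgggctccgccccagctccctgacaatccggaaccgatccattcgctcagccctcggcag

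Together the members took between 0.29% and 0.38% of the counts of a library. Single members differed widely in level. Mrps6, a small-subunit protein of bacterial descent, averaged 175 CPM over the 24 libraries, and Mrpl34 averaged 162 CPM. At the other end, Mrps18b averaged 0.675 CPM (1 to 18 reads in a library), Mrpl23 1.21 CPM (3 to 30 reads) and Mrps36 2.09 CPM (6 to 44 reads), so these 3 were measured with low precision. Reads of Mrpl23 and Mrps36 may also be shared with the pseudogenes Mrpl23-ps1 and Mrps36-ps2, which had 0 to 18 and 0 to 31 reads. A 3′ count does not grow with transcript length, but these levels are used below only to compare diets.

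The summed level of the large subunit was lowest on the casein control diet and highest on elemental MR. It averaged 2239 ± 351 CPM (SD, n = 6) in elemental controls, 2629 ± 278 in elemental MR, 1846 ± 238 in casein controls and 2369 ± 203 in oxidized casein MR. The small subunit followed the same order, with 1093 ± 138, 1259 ± 117, 934 ± 158 and 1188 ± 93.6 CPM. Large-subunit sums on casein overlapped through a single control mouse, since controls ran from 1510 to 2247 CPM and MR mice from 2202 to 2758. Small-subunit sums ran from 734 to 1208 and from 1068 to 1332 CPM. On elemental amino acids both subunits overlapped broadly, the large subunit with 1845 to 2852 CPM in controls and 2285 to 3094 in MR mice. The ratio of the large to the small sum stayed between 1.86 and 2.18 in the 24 libraries, with diet means of 2.04 ± 0.096, 2.09 ± 0.087, 1.99 ± 0.095 and 2.0 ± 0.10 in the same order. Those diet means differed by no more than about the spread within a diet.

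**Figure D1:**
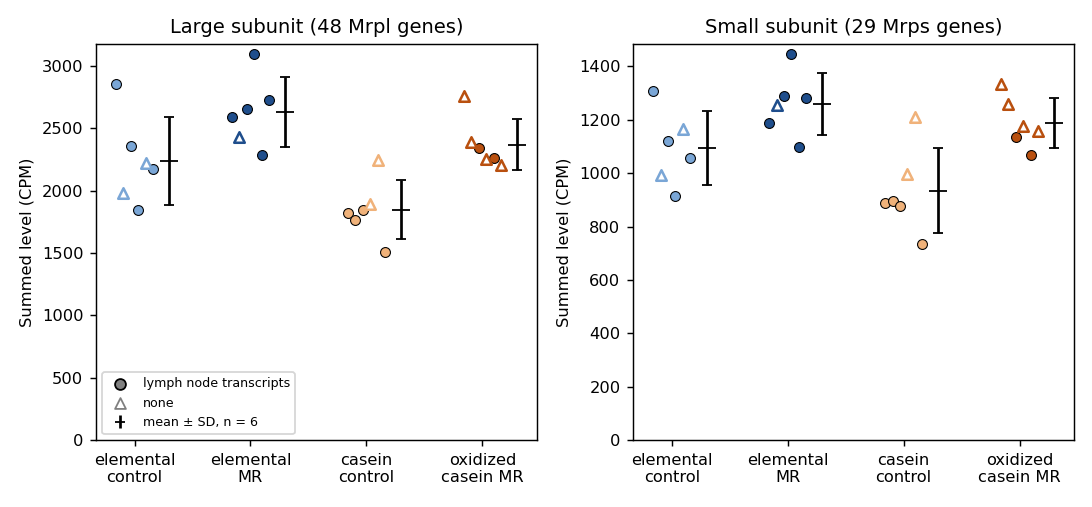
Summed CPM of the large-subunit members (left) and small-subunit members (right) in each mouse, by diet. Filled circles are libraries with lymph node transcripts, open triangles libraries without them, and bars the mean ± SD of 6 mice. Casein controls average 1846 and 934 CPM and elemental MR mice 2629 and 1259 CPM.

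The order elemental MR, oxidized casein MR, elemental control, casein control, from high to low, held for the diet means of 51 members (66.2%), and for 8.98% of all genes tested. The casein control diet had the lowest mean in 74 of 77 members, against 27.3% of all genes, and elemental MR the highest in 64, against 23.7%. The 3 members not lowest on casein control were Mrps9, Mrpl24 and Mrps18b, named here after their values were seen. Among neighbours in this order, elemental MR against oxidized casein MR and elemental control against casein control gave no member past the test threshold, and oxidized casein MR against elemental control was not tested.

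Several other measures moved with the diets. Mitochondrially encoded genes took 26.2 ± 3.97% of the counts in elemental controls, 32.9 ± 2.73% in elemental MR, 18.8 ± 3.61% in casein controls and 27.9 ± 4.36% in oxidized casein MR. That is the same order as for the ribosomal proteins. Adipocyte markers summed to 30811, 36206, 33225 and 46209 CPM, a different order. On casein they ran from 20482 to 46117 CPM in controls and 31506 to 62735 in MR mice. There 1 of 8 was higher past the threshold, beside 3.35% of all genes. Transcripts of the lymph node embedded in this pad, read from 12 B cell markers, were present in 15 libraries, 4 of elemental control, 5 of elemental MR, 4 of casein control and 2 of oxidized casein MR. B cell markers summed to 201 to 1902 CPM in casein controls and 56.9 to 1382 CPM in oxidized casein MR mice, and no marker of the 12 was at 0 reads in any library with those transcripts. In elemental controls they summed to 229 to 1148 CPM and in elemental MR mice to 115 to 1287. Skeletal muscle markers reached 11757 CPM in 1 elemental control and 5181 in 1 elemental MR library, and hepatocyte markers 11007 CPM in 1 elemental control. Macrophage markers ran against the members, with summed CPM of 441 to 829 (elemental control), 212 to 557 (elemental MR), 385 to 721 (casein control) and 300.3 to 525 (oxidized casein MR). On casein 1 of 9, Cd68, fell (log2 fold change -0.96, adjusted p = 0.0367), beside 0.461% of all genes, and the median was −0.32. On elemental amino acids none of 9 passed, 7 were lower before adjustment (beside 5.08% of all genes), and the median was −0.59. Adipose progenitor markers summed to 1572 to 4494, 1127 to 1869, 1307 to 4199 and 1498 to 2916 CPM in the same order. None of 9 passed, and 6 were lower before adjustment on elemental amino acids, beside 5.08% of all genes. The medians were −0.66 on elemental amino acids and −0.18 on casein. The part of these in the results was not tested beyond the fits without such libraries given below. In bulk tissue, fewer cells of a type and less RNA per cell cannot be told apart.

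On casein, transcripts of a set of mitochondrial ribosomal proteins of both subunits were higher in MR mice. No member was called lower (0.461% of all genes were). Here and below, a member that rose had more transcript on oxidized casein MR than on intact casein. Protein was not measured, and the effects of oxidation and of methionine cannot be told apart. By edgeR's quasi-likelihood test with Benjamini-Hochberg adjustment over 15176 genes (threshold 0.05), 18 of 77 members were higher in oxidized casein MR than in casein control mice, beside 3.35% of all genes. They were 11 of 48 large-subunit members (22.9%) and 7 of 29 small-subunit members (24.1%). Before adjustment, 45 members were higher at p under 0.05, beside 9.67% of all genes, and none was lower, beside 6.4%. The log2 fold change was above 0 in 76 of 77 members, beside 41.9% of all genes, with a median of 0.34 against −0.06 over all genes. Medians were 0.34 for the large and 0.35 for the small subunit. A difference between them was not tested.

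Mrpl12, Mrpl10 and Mrpl1, proteins of the stalks that reach out from the large subunit, rose, and Mrpl11, at the base of the factor-binding stalk, did not pass (log2 0.18, SE 0.10, adjusted p = 0.42). Placing members by region was done after their values were seen and was not tested. Mrpl12 forms the flexible factor-binding stalk and has also been described to bind the mitochondrial RNA polymerase. Its lowest, median and highest levels were 53.1, 70.7 and 79.1 CPM in casein controls and 89.5, 114 and 165 CPM in oxidized casein MR mice. No MR mouse overlapped a control, and its change was the largest among the members called (1.71-fold higher, log2 fold change 0.77, SE 0.17, adjusted p = 0.0101). Mrpl10 anchors that stalk. It measured 28.7, 35.4 and 41.2 CPM in controls and 44.9, 48.3 and 65.7 CPM in MR mice, again without overlap (log2 fold change 0.51, SE 0.12, adjusted p = 0.0118). Mrpl1, of the stalk where deacylated tRNA leaves, had 12.6, 13.7 and 15 CPM in controls and 18, 20.9 and 22.6 CPM in MR mice. Its controls lay close together, and the difference of 1.5-fold (log2 0.58, SE 0.12) had the smallest adjusted p of the large subunit, 0.00676.

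Mrpl45 and Mrpl47, near the exit of the tunnel where the new chain leaves toward the inner membrane, rose. Mrpl45, which ties the ribosome to the membrane, had 28, 33.7 and 37 CPM in controls and 40.8, 42.7 and 54.6 CPM in MR mice (log2 fold change 0.46, SE 0.11, adjusted p = 0.0156). Mrpl47 measured 15.3, 16.2 and 23.3 CPM against 21.3, 25.1 and 35.2 CPM (log2 fold change 0.59, SE 0.14, adjusted p = 0.0153). Its highest control lay above its lowest MR mouse, while Mrpl45 showed no overlap. Mrpl17, Mrpl22, Mrpl23 and Mrpl24 also lie in this region, and none of the 4 passed the test. Mrpl17 changed by log2 0.31 (adjusted p = 0.233) and Mrpl22 by 0.32 (0.357). Mrpl24 had 46.8, 55.5 and 59.8 CPM in controls and 44.8, 54.7 and 65.2 CPM in MR mice, a log2 difference of 0.04 (SE 0.11), while the low counts of Mrpl23 gave 0.54 with an SE of 0.37.

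Of the other large-subunit proteins of bacterial descent, Mrpl34 had 77.7, 107 and 129 CPM in controls and 133, 164 and 254 CPM in MR mice, with no overlap (1.61-fold higher, log2 fold change 0.69, SE 0.18, adjusted p = 0.0305). Mrpl15 and Mrpl30 also rose, by log2 0.46 (SE 0.11, adjusted p = 0.018) and 0.49 (SE 0.12, adjusted p = 0.026). Among those found only in mitochondria, Mrpl42 rose by log2 0.63 (adjusted p = 0.019), Mrpl55 by 0.58 (0.018) and Mrpl38, a protein of the central protuberance, by 0.39 (0.0398). Mrpl38 lay nearest the threshold among the members called, and Mrpl3, with log2 0.34 and adjusted p = 0.0516, just beyond it.

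In the small subunit, Mrps15 had the smallest adjusted p of all members. This protein binds the small-subunit rRNA early in assembly. It measured 66.2, 84.3 and 99.1 CPM in casein controls and 113, 123 and 141 CPM in MR mice, with a clear gap between the groups (1.5-fold higher, log2 fold change 0.58, SE 0.11, adjusted p = 0.00618). Mrps2, a protein of bacterial descent, had 18.1, 24.9 and 31.2 CPM in controls and 25.6, 40.0 and 53.7 CPM in MR mice. Its groups overlapped, and the change was the largest among the small-subunit members called (1.65-fold, log2 fold change 0.72, SE 0.19, adjusted p = 0.0284). Mrps10, of the head, rose from 5.16 ± 0.965 to 7.96 ± 1.22 CPM (mean ± SD, n = 6, edgeR adjusted p = 0.0284). The mitochondria-specific Mrps35 and Mrps31 rose by log2 0.51 (adjusted p = 0.0301) and 0.53 (0.0365). Mrps31 had 15.9, 18.1 and 18.9 CPM in controls and 15.4, 25.8 and 37.7 CPM in MR mice, with 1 MR mouse below every control.

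Mrps18a and Mrps30 carry small-subunit names but are placed in the large subunit of the mammalian structure, and both rose. Mrps18a had 16.6, 19.6 and 24.8 CPM in controls and 24.4, 28.8 and 35.8 CPM in MR mice (log2 fold change 0.56, SE 0.12, adjusted p = 0.0104), with a slight overlap. Mrps30 had 41.5, 44 and 50.3 CPM against 54.7, 57.6 and 62.1 CPM, a smaller change without overlap (log2 fold change 0.39, SE 0.09, adjusted p = 0.0117). Counted by place in the structure, 13 of 50 large-subunit and 5 of 26 small-subunit members rose, with Mrps36, described as a subunit of the oxoglutarate dehydrogenase complex, in neither. Of the relatives of Mrps18a, Mrps18c changed by log2 0.30 (adjusted p = 0.16) and Mrps18b by -0.81 with an SE of 0.53 on a median of 8 reads. Mrps18b was the only member with a casein fold change below 0.

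The members that rose included proteins of both kinds of descent. By place in the structure, 8 of 30 large-subunit proteins of bacterial descent and 5 of 20 mitochondria-specific ones rose (medians 0.34 and 0.32). In the small subunit these counts were 3 of 16 and 2 of 10 (medians 0.31 and 0.37). Mrps18b (log2 -0.81) was counted among these 10, although Mrps18a and Mrps18c are its relatives. The split by descent is therefore uncertain for this family, and the small-subunit medians rest on that placing. Members with roles apart from the plain ribosome gave mixed values. Mrps34, needed for stability of the small-subunit rRNA, changed by log2 0.38 (adjusted p = 0.0586), and Mrps27, a pentatricopeptide repeat protein, by 0.37 (0.207). Mrps12, of the decoding centre, changed by 0.34 (0.187), Mrpl58, a peptidyl-tRNA hydrolase built into the large subunit, by 0.24 (0.347), and Mrpl54 by 0.13 (0.648). The smallest changes included Mrpl52, with 56.1, 66.7 and 72.5 CPM in controls and 57.6, 66.4 and 75.1 CPM in MR mice (log2 0.04, SE 0.11). Its groups covered nearly the same range. The most abundant member, Mrps6, had 82.4, 143 and 319 CPM in controls and 138, 195 and 217 CPM in MR mice and did not pass the test (log2 0.17, SE 0.23), 1 control being far above the rest.

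**Figure D2:**
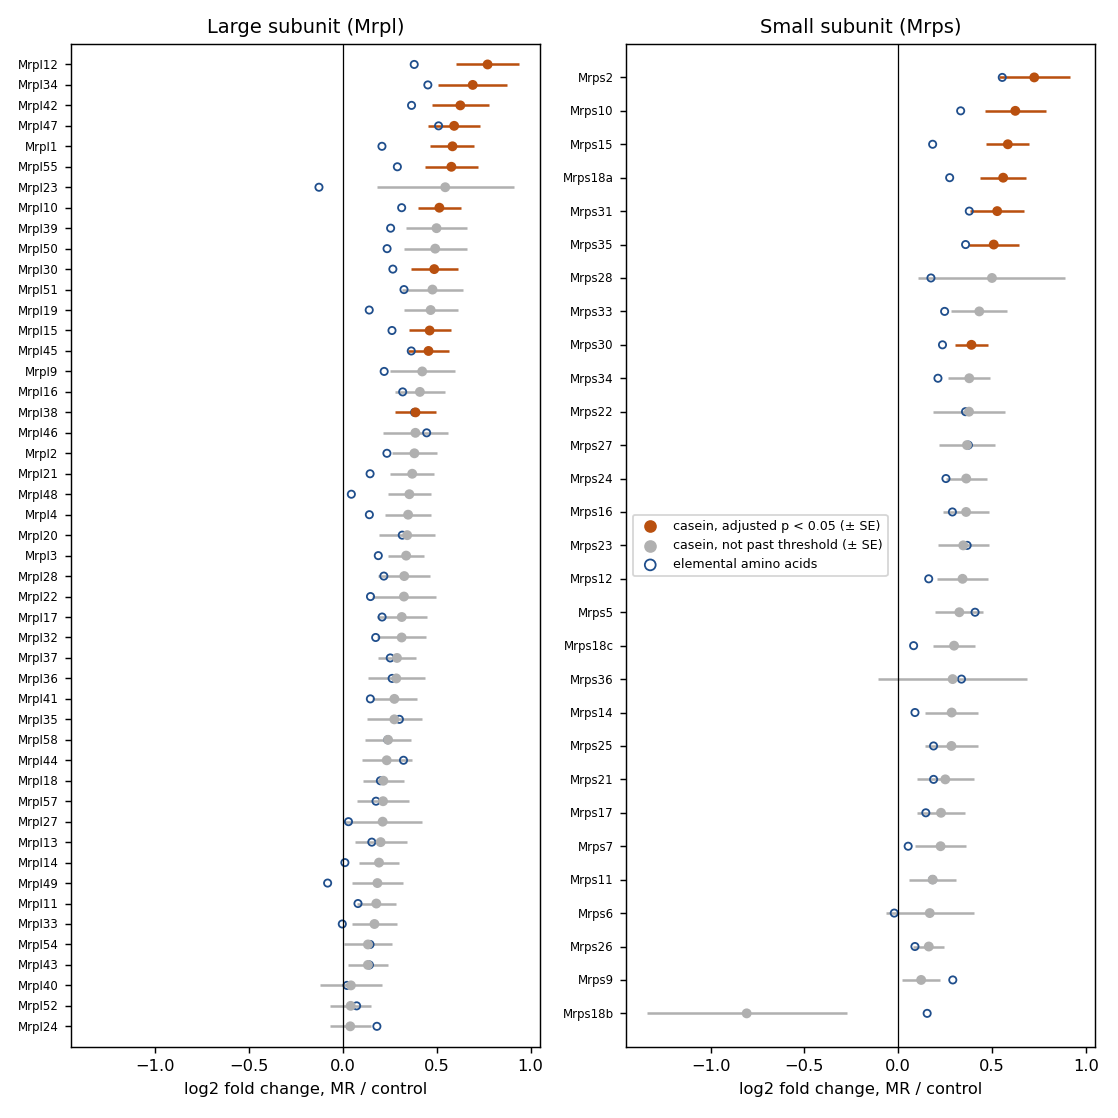
Log2 fold change of MR over control for each member, large subunit left and small subunit right. Filled points with bars (± SE) are the casein comparison, orange where the adjusted p is under 0.05, and open blue circles the elemental comparison. The 18 orange points run from 0.39 to 0.77, and 76 of 77 casein points lie right of 0.

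Complete separation was counted apart from the test: 14 members had every oxidized casein MR mouse above every casein control, beside 2.27% of all genes. Of these, 10 were of the large and 4 of the small subunit. Mrpl28, Mrpl46 and Mrps24 were among the 14 without passing the adjusted threshold, with log2 0.33 (adjusted p = 0.229), 0.39 (0.264) and 0.36 (0.0686).

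How many members passed depended on single mice. Leaving out 1 library at a time gave 7 (without casein control 6) to 29 calls (without casein control 5), and 12, 11 and 14 without casein control 1, oxidized casein MR 1 or casein control 4, and the median log2 fold change stayed between 0.30 and 0.39. Mrpl1, Mrpl10, Mrpl12, Mrpl47, Mrps15, Mrps18a and Mrps30 passed in each of these 24 fits. Mrpl42, Mrpl45 and Mrpl55 passed in 23, and Mrpl15 and Mrpl30 in 22. Mrpl34 and Mrps2 passed in 20, Mrps10 and Mrps35 in 19, Mrps31 in 16 and Mrpl38 in 14. With presence of lymph node transcripts as a term, 23 members passed, including the 18. Splitting the libraries by those transcripts also cut the comparison to 6 libraries. In the libraries without them (2 controls, 4 MR mice) the median was 0.27 and only Mrpl38 passed, and in those with them (4 controls, 2 MR mice) it was 0.36 and none passed. Without lymph node transcripts the summed level of all members was 2886 and 3455 CPM in controls and 3359 to 4089 in MR mice, which overlapped. With them, controls at 2244 to 2723 CPM lay below MR mice at 3330 and 3479.

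**Figure D3:**
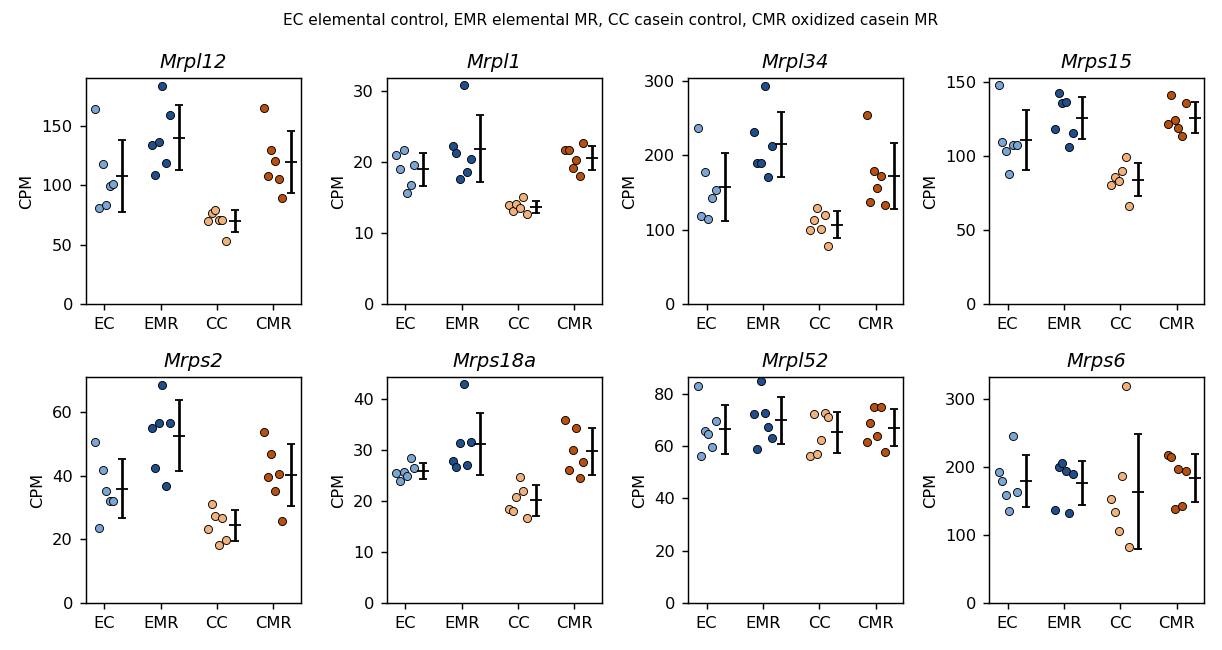
CPM of 8 members in each of the 24 mice, with the mean ± SD of each diet (n = 6). Mrpl12, Mrpl1, Mrpl34 and Mrps15 have every oxidized casein MR mouse above every casein control, Mrps2 and Mrps18a nearly so, while Mrpl52 and Mrps6 overlap throughout.

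On elemental amino acids no member passed the adjusted threshold, beside 0.244% of all genes in either direction. Before adjustment, 27 members were higher in MR mice at p under 0.05, beside 5.08% of all genes, and none was lower, also beside 5.08%. The fold change was above 0 in 73 of 77 members, beside 46.1%, with a median of 0.22 against −0.02 over all genes. Medians were 0.21 for the large and 0.24 for the small subunit. No member had all MR mice above all controls, beside 0.573% of all genes.

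The smallest adjusted p on this protein source was that of Mrpl47, with 18.3, 23 and 26.7 CPM in controls and 25.8, 32.4 and 38.9 CPM in MR mice (log2 fold change 0.51, SE 0.14, adjusted p = 0.134). Mrpl38 had 30.9, 32.6 and 40.1 CPM against 39.9, 45.2 and 52.6 CPM, overlapping narrowly (log2 fold change 0.38, SE 0.11, adjusted p = 0.143), and Mrpl45 31.5, 36.7 and 46.1 CPM against 41.4, 47.8 and 56.6 CPM (log2 fold change 0.36, SE 0.11, adjusted p = 0.17). These 3 passed in the DESeq2 Wald test (adjusted p = 0.0354, 0.0373 and 0.0499), and without elemental control 1 the edgeR test called 2 members. Of the small subunit, Mrps5 (log2 0.41, adjusted p = 0.211), Mrps2 (0.55, 0.259) and Mrps9 (0.29, 0.264) had the smallest p. Mrps9 measured 19.3, 24.8 and 32 CPM in elemental controls and 30.1, 30.9 and 33.4 CPM in elemental MR mice, a narrow band around the top of the control range, with 2 MR mice above every control. The 4 members below 0 were Mrpl23 (-0.13, SE 0.35), Mrpl49 (-0.08, SE 0.13), Mrps6 (-0.02, SE 0.23) and Mrpl33, a large-subunit protein listed here after its values were seen, at −0.00 (SE 0.12).

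The difference between the MR effects was tested as the interaction of the 4 diets, and no member passed (0% of all genes did). The fold change was larger on casein in 64 of 77 members, beside 51.3% of all genes, with a median difference of 0.15. That median was 0.075 without casein control 6 and 0.086 without elemental control 1, and up to 0.18 without casein control 5. Before adjustment 2 members had a larger value on casein at p under 0.05, beside 2.1% of all genes. They were Mrps15, by log2 0.40 (SE 0.16, edgeR adjusted p = 0.91), and Mrpl1, by 0.38 (SE 0.16, adjusted p = 0.91). On elemental amino acids Mrps15 ran 88, 108 and 148 CPM in controls and 106, 127 and 143 CPM in MR mice, and Mrpl1 15.6, 19.3 and 21.7 CPM and 17.6, 20.8 and 30.8 CPM. The groups of both overlapped there. All 18 members that rose on casein had an elemental fold change above 0, as had 73 of all 77 members and 46.1% of all genes. The median of the 18 was 0.35 on elemental amino acids, beside 0.57 on casein. Because the 18 were picked by their casein result, these 2 medians do not show a larger effect on casein. Over all 77 members the medians were 0.22 on elemental amino acids and 0.34 on casein. In the elemental comparison 16 of the 18 had an unadjusted edgeR p under 0.05. Of all 77 members 27 were higher at that limit, beside 5.08% of all genes. The elemental and casein comparisons share no libraries, but both take their spread from the same fit over all libraries. Since no member passed the interaction test, no effect was shown to be particular to 1 protein source.

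Set against elemental controls, casein controls had lower values of most members, but none passed the adjusted threshold (0.646% of all genes were lower). Before adjustment, 33 members were lower at p under 0.05, beside 9.54% of all genes, and none was higher, beside 3.03%. The median was −0.25, with −0.26 for the large and −0.23 for the small subunit, against 0.02 over all genes. In Mrpl1, Mrpl12 and Mrps31 every casein control lay below every elemental control (beside 0.751% of all genes). Mrpl12 had 81, 99.98 and 164 CPM in elemental controls (log2 fold change -0.62, SE 0.17, adjusted p = 0.0832), Mrpl1 gave -0.47 (SE 0.12, adjusted p = 0.0652) and Mrpl15 -0.42 (SE 0.11, adjusted p = 0.0778). DESeq2 called 6 members lower, the fit with a lymph node term 5, the fit without the muscle-rich libraries 2, and fits without 1 library between 0 and 3. In libraries without lymph node transcripts, 2 per diet, the median was −0.08 and the sums overlapped (2886 and 3455 CPM on casein, 2972 and 3386 on elemental amino acids). In libraries with them, 4 per diet, the median was −0.35 and 2 members passed. Whether these medians differ was not tested.

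Between the MR diets, no member passed (0% of all genes did), 6 were lower on oxidized casein before adjustment, beside 3.14% of all genes, and the median was −0.12 against −0.03. The members' median was −0.070 without elemental MR 4 or without elemental MR 6, −0.073 without oxidized casein MR 6 and −0.082 without oxidized casein MR 3. Mrpl44, an RNase III-like protein of the large subunit, had 21.5, 24.7 and 26.7 CPM in elemental MR and 15.9, 18.6 and 20.9 CPM in oxidized casein MR mice, without overlap (log2 -0.39, SE 0.13, edgeR adjusted p = 0.636). Mrpl38 was also without overlap (log2 -0.26, adjusted p = 0.666), beside 0.204% of all genes. These last comparisons use the same libraries as the MR effects and add no separate evidence on them.

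Other genes of mitochondrial translation were listed by function. Of 5 mitoribosomal proteins with other symbols none passed, among them Dap3 (log2 0.08, SE 0.11), a GTP-binding small-subunit protein, and Ptcd3 (0.47, SE 0.17). Of 25 genes for assembly and rRNA modification 3 rose, beside 3.35% of all genes. They were Mterf4, a partner of the rRNA methyltransferase NSUN4 (log2 fold change 0.59, SE 0.13, adjusted p = 0.0116), Eral1, a chaperone of the small-subunit rRNA (0.55, adjusted p = 0.0192), and Mtg1, a GTPase of large-subunit assembly (0.45, 0.0281). Of 16 translation factors 1 rose, beside 3.35% of all genes, a count too small to be read as a result about the factors. It was Gfm2, a ribosome recycling factor (0.50, adjusted p = 0.034). Gfm2 was also lower in casein than in elemental controls (-0.56, 0.0499), as were 0.646% of all genes. The medians were 0.19 for assembly and 0.29 for factors, beside 0.34 for the members.

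The 2 mitochondrially encoded rRNAs, which the members bind, gave mt-Rnr1 0.91 (SE 0.32, adjusted p = 0.12) and mt-Rnr2 0.97 (SE 0.31, adjusted p = 0.0878). Of the 13 mitochondrially encoded mRNAs, the ribosome's templates, 8 were in the count table. Those missing were mt-Nd4l, mt-Co2, mt-Co3, mt-Atp6 and mt-Atp8. Of the 8, 6 rose (median 0.94), beside 3.35% of all genes, among them mt-Nd1 (1.01, adjusted p = 0.00898) and mt-Co1 (0.82, 0.0145). Of 74 nuclear-encoded respiratory chain subunits 62 rose (median 0.72), beside 3.35% of all genes. No cytosolic ribosomal protein of 85 passed, and their median was −0.21. Among 13 regulators 2 rose, beside 3.35% of all genes. They were Esrra (0.76, adjusted p = 0.0308) and Ppargc1b (1.11, 0.037), a coactivator of mitochondrial biogenesis. Ppargc1a gave 0.75 (0.0523), Gabpa 0.29 (0.434), Nrf1 -0.16 and Yy1 -0.22. On elemental amino acids none of these lists had a call, beside 0.244% of all genes in either direction. The medians there were 0.11 for assembly, 0.26 for factors, 0.60 for mitochondrial mRNAs, 0.43 for respiratory chain subunits and 0.04 for cytosolic ribosomal proteins.

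**Figure D4:**
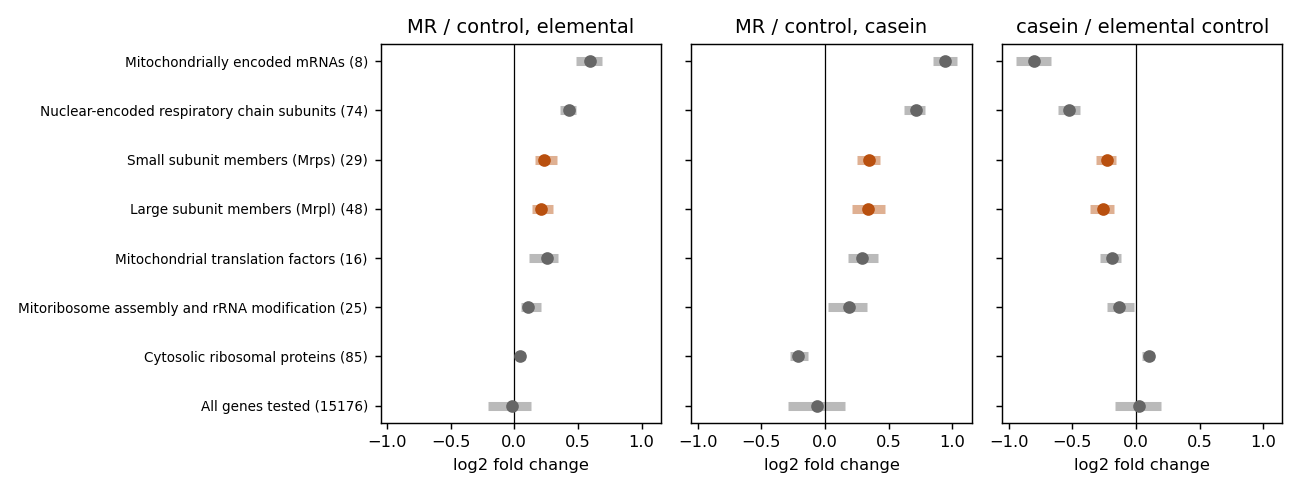
Median (points) and quartiles (bars) of the log2 fold change in 3 comparisons for the large and small subunit members (orange), other mitochondrial lists, cytosolic ribosomal proteins and all genes (grey), with the number tested in brackets. On casein the medians are 0.34 and 0.35 for the subunits, 0.72 for respiratory chain subunits and −0.21 for cytosolic ribosomal proteins.

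Of the 18 members that rose on casein, 15 had a RefSeq window. The GABPA sequence stood in 2 of them (13.3%), beside 36.8% of members and 18.6% of all genes. The YY1 sequence stood in 2 (13.3%, beside 17.6% and 4.90%) and the SP1 sequence in 4 (26.7%, beside 50.0% and 65.9%). The NRF1 sequence stood in 1, Mrpl10 (6.67%, beside 11.8% and 5.53%). Mrps18a and Mrpl34, shown above, were the GABPA carriers. Mrpl12 and Mrps15, with the largest rise and the smallest p among the members called, held neither capitalised sequence. Mrpl52, with 2 GABPA matches, was among the members that changed least. These members were picked after their values were seen, and a link between the sequences and the changes was not tested. Exons of 32 members overlap those of another gene in the GENCODE M21 annotation, 27 on the opposite strand, and the strand setting of the counting is not given in the sources used here. Among those that rose, this holds for Mrpl10 (Gm11574), Mrpl12 (Gm16755), Mrps30 (B430218F22Rik) and Mrpl47 (Actl6a and Ndufb5), so reads of these pairs may be shared. Ndufb5, a respiratory chain subunit, itself rose on casein (0.75, adjusted p = 0.0162).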

How the data were processed

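IWAT RNA of 24 mice was read with a QuantSeq 3′ kit (50 bp, single end), per the labels' protocols. The authors deposited a raw count per gene and library, and a normalized signal table that equals the counts divided by 1 size factor per library. GRCm38, DESeq2 1.18.1 and R 3.4.3 stand in the submitters' processing notes. Aligner, counter and strandedness: not given in the sources used here. Library totals ran from 7468336 to 19868913 counts. Counts are of PCR copies, and the errors used in the tests come from differences among mice.

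The test was edgeR 4.0.16 under R 4.3.3: filterByExpr (15176 genes kept, 1645 removed), TMM, 1 mean per diet for all 24 libraries, robust quasi-likelihood F tests (2-sided) and Benjamini-Hochberg adjustment over all genes kept. Each SE is the log2 fold change over the square root of F. Levels are TMM-scaled CPM. The procedure was tested on simulated data. Other settings used DESeq2 1.42.0 and limma 3.58.1 (voom). A library had lymph node transcripts where its mean log2 CPM of 12 B cell markers (prior count 2) exceeded 4, and was muscle-rich where Acta1 exceeded 1000 CPM. Splitting the libraries by lymph node transcripts, the placement of members in the structure and their descent were chosen after values were seen. The NRF1 letters searched were shortened after the counts of a longer form, which was rarer in members and in all genes, had been seen. In bulk RNA each p-value sets a difference between diets against the spread between mice.

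The members and lists were chosen with earlier results of these data known. Named members were those past the threshold (up to 12 per subunit), or the 3 of smallest p, those with the largest and smallest fold changes, those with the highest and lowest levels, and 12 with roles apart. From other lists, mainly those with the smallest p are named.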

Additional observations from a re-analysis of the deposited data

Results flagged for a closer look

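Among 116 groups of 6 mice (26 members and the summed levels, on each diet), 12 held a mouse whose gap to its neighbour was a large share of the group's range (past Dixon's limit). Chance flags about 1 in 20 groups. Elemental MR 4 was the high mouse in 4 of them, with Mrpl1 at 30.8, Mrpl15 at 77.9, Mrps18a at 42.9 and Mrpl30 at 121.9 CPM. Elemental control 1 stood high for Mrpl24 (68.9 CPM) and Mrps15 (148 CPM). Oxidized casein MR 1 stood high for the summed large subunit (2758 CPM) and Mrpl10 (65.7 CPM). In casein controls, mouse 6 was low for Mrpl12 (53.1 CPM), mouse 3 high for Mrpl47 (23.3 CPM) and mouse 2 high for Mrps30 (50.3 CPM). Mrps18b in oxidized casein MR 3 was at 1.19 CPM, a level of few reads. Mrpl10, Mrpl12, Mrpl47 and Mrps30 passed the casein test without each of these mice in turn.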

How the results depend on the processing

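No paired analysis was possible because the labels give each mouse its own number and the replicate numbers used here follow only the order of the samples. Median fold changes of all members kept their sign in each alternative setting run. On casein 18 members passed, and 29 in the DESeq2 Wald test, 1 in libraries without and 0 in libraries with lymph node transcripts, which leave 6 libraries each, and 7 to 29 when 1 library was left out. A fit of only the 2 casein diets called 13 members, all of them among the 18. On elemental amino acids 3 passed in DESeq2 and 0 to 2 with 1 library left out. For casein against elemental controls 6 passed in DESeq2, 5 with a lymph node term, 2 without the muscle-rich libraries, 2 in libraries with lymph node transcripts, and 0 to 3 with 1 library left out. The share of all genes called under each other setting is not given here. These counts therefore show only how the calls of members moved. In libraries without lymph node transcripts the small-subunit medians were −0.0034 for the difference between MR effects and −0.027 for the control diets, and between the MR diets the medians were −0.013 for all and −0.0098 for large-subunit members. Leaving mitochondrially encoded genes out of the totals put the summed CPM at 4528, 5328, 3757 and 4906 (elemental control, elemental MR, casein control, oxidized casein MR), since the denominator shrank.

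Sign changes touched named members with small or imprecise fold changes, and the cause was not tested. On elemental amino acids, Mrps6 turned to 0.094 with a lymph node term, 0.085 in libraries with lymph node transcripts and up to 0.090 (from −0.092) with 1 library left out, and Mrpl49 to 0.0052 in libraries with those transcripts. With 1 library left out, Mrpl24 on casein ran from −0.0098 to 0.087. In libraries with lymph node transcripts, the difference for Mrpl48 was −0.12, that between control diets for Mrps9 −0.018, and those between MR diets were −0.13 for Mrpl27, −0.13 for Mrpl22, 0.15 for Mrps18b, 0.081 for Mrps36 and −0.30 for Mrps6. In libraries without them, Mrpl23 had 0.46 on elemental amino acids, −0.53 for the difference and 0.25 between control diets, Mrpl52 −0.038 on casein and 0.20 between control diets, Mrpl24 0.0067 and Mrps28 −0.44 for the difference, Mrps18b −0.20 between control diets, and Mrpl47 0.0025 and Mrps28 −0.40 between MR diets. With a lymph node term the values between MR diets were −0.16 for Mrpl27, −0.27 for Mrps6 and −0.10 for Mrps28. With 1 library left out, Mrpl52 between control diets ran from −0.060 to 0.065 and Mrpl22 between MR diets from −0.024 to 0.17.

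Depth limits Mrps18b, Mrpl23 and Mrps36, whose median counts were 8, 14 and 22 reads. With 6 mice per diet, a p that misses the threshold does not show that diets act alike.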
